A study of Homo sapiens with 8 samples.

Results

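The BCL2 family apoptosis regulators examined here are 10 genes, *BCL2*, *BCL2L1*, *BCL2A1*, *MCL1*, *BCL2L11*, *BID*, *BIK*, *BMF*, *HRK* and *BAK1*. They were found as the probes that are not controls and carry one of these names in the gene column of the array, which gave 16 of 50599 distinct probes, and 13 of the 16 passed the filter on dim probes. At least 1 probe of each of the 10 genes passed. Expression was measured on 8 one-color arrays from 4 clones derived from HCT116, an established line of human colorectal cancer cells. The clones CONT1 and CONT2 received as control the plasmid pcDNA6.2-GW/EmGFP-miR-neg, and TET1-KD1 and TET1-KD2 are clones that stably carry a *TET1* knockdown vector, each with a different artificial miRNA against *TET1*, a methylcytosine dioxygenase. All 4 clones were selected with G418. Each was analyzed untreated and after 72 h with 5-aza-dC at 1 µM, a nucleoside analog that inhibits DNA methyltransferases, so a condition has n = 2 arrays, each from a single clone. A separate treatment field of the labels gives mock treatment for all control arrays and 5-aza-dC for all knockdown arrays, and the titles, which give each clone once without and once with the drug, were followed.

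The BCL2 family decides whether the outer membrane of mitochondria stays intact. Its pro-survival members, among them *BCL2*, *BCL2L1* (BCL-XL), *BCL2A1* (BFL1) and *MCL1*, bind and hold back the effectors BAK and BAX, which otherwise permeabilize the membrane and release cytochrome c. The BH3-only members *BCL2L11* (BIM), *BID*, *BIK*, *BMF* and *HRK* carry stress signals to these proteins, by occupying the pro-survival members or by engaging the effectors. Several members are regulated at the level of transcription and splicing, and mRNA does not report the protein, which for *MCL1* is turned over rapidly.

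Signals are given on the log2 scale after each array was scaled to its 75th percentile, and differences are on the same scale, so that a difference of 1 is a change of 2-fold. Levels of different probes were not compared. The targeted gene was examined first. The untreated arrays gave the brightest *TET1* probe signals of 9.70 (CONT1), 9.75 (CONT2), 8.65 (TET1-KD1) and 9.41 (TET1-KD2). The knockdown clones were thus lower on both arrays, most in TET1-KD1, but the difference of -0.69 (SE 0.29, limma adjusted p = 0.610) did not pass the test. A dimmer *TET1* probe, above background on all 8 arrays, differed by -0.98 (SE 0.38, limma adjusted p = 0.585). The dimmest tested *TET1* probe was above background only on the untreated control arrays, through which it passed the filter on dim probes. It was at least 1.20-fold lower in the knockdown clones (limma adjusted p = 0.370). The paper reports lower *TET1* mRNA by RT-qPCR in these clones, more so in TET1-KD1 than in TET1-KD2. Of the epithelial markers, *EPCAM*, *CDH1*, *KRT8*, *KRT18*, *KRT19* and *CDX1* were above background on all 8 arrays and *VIL1* on 2, and 1 rose and 3 fell with 5-aza-dC in the control clones. Among 7 markers of other cell types, *COL1A2* was above background on 0 arrays and *PTPRC* on 8, with signals of 5.09 to 7.41, whereas *VIM* rose from 8.40 to 15.06 in the control clones and from 7.57 to 13.08 in the knockdown clones with 5-aza-dC. In all, 5 of the 6 tested markers of other cell types rose and 1 fell in the control clones, and 1 rose in the knockdown clones. Of all genes, 20.5% rose and 21.3% fell in the control clones, and 9.44% rose in the knockdown clones. *PECAM1* and *DCN* passed the filter on dim probes only through treated arrays. The part of these marker signals in the results below was not tested. In bulk RNA, fewer cells of a kind and less RNA per cell cannot be told apart.

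The arrays lay on 2 slides. Both arrays of 5-aza-dC-treated control clones were on the second slide, scanned 230 days after the first, and all other arrays shared the first slide. The slide and the drug therefore cannot be told apart in the control clones, or in the difference in response between the kinds of clone. Before scaling, spike-in RNAs with signals of 7.91 and 9.36 on the first slide were lower by 1.01 and 0.99 on the second, and the brightest spike-in differed by -0.05. The response of the knockdown clones and the comparison of untreated clones lie within the first slide.

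*BCL2L11*, *BID* and *BCL2A1* each had a probe that changed more than 2-fold with 5-aza-dC in the control clones and passed the test below. For *BCL2L11* this was not its brightest probe, which was not called. The start regions of these 3 members are shown for this reason and because 5-aza-dC acts on methylation at CpG sites. They are the 250 bases upstream of the start that RefSeq places at the 5′ end of the gene (GRCh38.p14), read 5′ to 3′ on the gene's strand, with every CG, which reads the same on both strands, in capitals. *BCL2L11* lies at chr2:111120664-111120913 (+), *BID* at chr22:17774666-17774915 (-) and *BCL2A1* at chr15:79971197-79971446 (-).
BCL2L11: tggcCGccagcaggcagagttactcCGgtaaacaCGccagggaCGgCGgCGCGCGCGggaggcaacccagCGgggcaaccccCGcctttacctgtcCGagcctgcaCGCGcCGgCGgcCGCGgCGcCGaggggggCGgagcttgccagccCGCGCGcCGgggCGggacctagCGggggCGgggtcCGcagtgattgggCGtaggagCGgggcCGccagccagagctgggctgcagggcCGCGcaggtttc
BID: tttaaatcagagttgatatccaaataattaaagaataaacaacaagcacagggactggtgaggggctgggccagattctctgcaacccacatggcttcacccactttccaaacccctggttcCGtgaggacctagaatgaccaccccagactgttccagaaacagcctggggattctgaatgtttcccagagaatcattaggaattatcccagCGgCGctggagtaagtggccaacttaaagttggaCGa
BCL2A1: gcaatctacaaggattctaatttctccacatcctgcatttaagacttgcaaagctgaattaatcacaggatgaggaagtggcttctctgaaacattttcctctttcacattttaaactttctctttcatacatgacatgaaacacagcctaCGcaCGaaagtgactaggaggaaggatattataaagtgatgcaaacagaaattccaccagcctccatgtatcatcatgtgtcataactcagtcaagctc

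The region of *BCL2L11* holds 34 CpG sites, and 6.8% of 35114 RefSeq promoters hold as many or more. That of *BCL2A1* holds 2, and 85.3% of promoters hold as many or more. *BID* has 4 sites upstream of this outermost start and 24 to 30 upstream of its other 4 listed starts. Of the 10 members 8 were matched to RefSeq promoters, and *MCL1* and *BIK* were not. *BMF* had 26 sites upstream of one start and 0 upstream of another, *HRK* had 22, *BAK1* had 5, *BCL2* had 24 and *BCL2L1* had 17 and 12. The median over all promoters was 11 sites, and 93.9% hold at least 1. No methylation was measured in these arrays, so the counts describe the sequence only.

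With 5-aza-dC in the control clones, 4 of the 10 members passed the test, each by the brightest tested probe of the gene, beside 41.8% of all 19687 genes tested. *BCL2A1* and *MCL1* rose (2 of 10, against 20.5% of all genes), and *BID* and *BIK* fell (2 of 10, against 21.3%). The members' share was close to that of all genes. It counts *BCL2A1* by a probe whose identity is limited, as described below. The median difference over the 10 members was 0.24, with a range from -1.31 to 1.12, beside a median of -0.05 over all genes.

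*BID*, which links death receptors to mitochondria once caspase 8 has cleaved its protein, had the largest fall among the members in the control clones. Its signals were 13.24 in both untreated CONT1 and CONT2 and 11.91 and 11.95 after 5-aza-dC. Signals of the knockdown clones were 13.42 in TET1-KD1 and 13.09 in TET1-KD2 untreated, and 13.07 and 12.75 after the drug. Both treated control arrays thus lay below the other 6 arrays, and the 2 clones of each kind gave similar responses. The difference in the control clones was -1.31 (SE 0.18, 95% interval -1.76 to -0.86, limma adjusted p = 0.00283), a 2.48-fold decrease. The standing probe lies at chr22:18218265-18218324 on hg19, and a second *BID* probe, at chr22:18218182-18218241, fell by 1.10 (SE 0.17, adjusted p = 0.00382). The standing probe differed in the knockdown clones by -0.35 (SE 0.18, interval -0.79 to 0.10, adjusted p = 0.285), with responses of -0.35 in TET1-KD1 and -0.34 in TET1-KD2. With the clone as a replicate block and the trend on probe GC content removed, the standing probe was called in the knockdown clones as well (-0.59, adjusted p = 0.0334).

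*BIK*, a BH3-only gene whose protein resides mainly at the endoplasmic reticulum, gave 11.55 in CONT1 and 11.70 in CONT2 without the drug and 10.94 and 11.04 with it. The 2 conditions did not overlap in the control clones, where *BIK* fell by 0.64 (SE 0.19, adjusted p = 0.0400), a 1.55-fold decrease. Signals of the knockdown clones were 11.50 and 11.71 untreated and 11.14 and 11.56 treated, which overlap, and the difference was -0.26 (SE 0.19, interval -0.73 to 0.21, adjusted p = 0.438). The call in the control clones was lost without any 1 of the 4 control arrays (adjusted p from 0.0999 to 0.180), and the GC correction with the clone as a block moved the difference to -1.07.

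*BCL2A1*, an NF-κB-driven pro-survival gene best known from hematopoietic cells, had signals of 9.89 in CONT1 and 9.81 in CONT2 untreated and of 11.05 and 10.89 with 5-aza-dC. In TET1-KD1 and TET1-KD2 they were 10.20 and 9.94 untreated and 10.49 and 10.48 treated. Every treated array was above its own untreated array. In the control clones *BCL2A1* rose by 1.12 (SE 0.16, interval 0.73 to 1.51, adjusted p = 0.00293), a 2.17-fold increase. In the knockdown clones the difference was 0.41 (SE 0.16, interval 0.03 to 0.80), which did not pass after adjustment (adjusted p = 0.156). The identity of this signal is limited. The file places only 33 of the 60 bases of this probe at chr15:80253220-80253252 on hg19, 3 of the 4 RefSeq accessions it lists are not held by the RefSeq table used here, and the other *BCL2A1* probe was above background on 0 of 8 arrays, with signals of 2.11 to 3.21.

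*MCL1*, which encodes a short-lived pro-survival protein, gave 10.79 in CONT1 and 10.86 in CONT2 without the drug and 11.40 and 12.02 with it. Signals of TET1-KD1 and TET1-KD2 were 11.27 and 11.02 untreated and 11.33 and 10.85 treated. The rise in the control clones was 0.88 (SE 0.27, interval 0.23 to 1.53, adjusted p = 0.0398), or 1.84-fold, and it was larger in CONT2 (1.15) than in CONT1 (0.61). The call was lost without any 1 of the 4 untreated arrays (adjusted p from 0.0533 to 0.148) and without the treated CONT2 array, where the difference was 0.57 (adjusted p = 0.168). With the clone as a block and the GC trend removed it was 0.43 (adjusted p = 0.120). The knockdown clones differed by -0.05 (SE 0.27, interval -0.70 to 0.59).

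**Figure D1:**
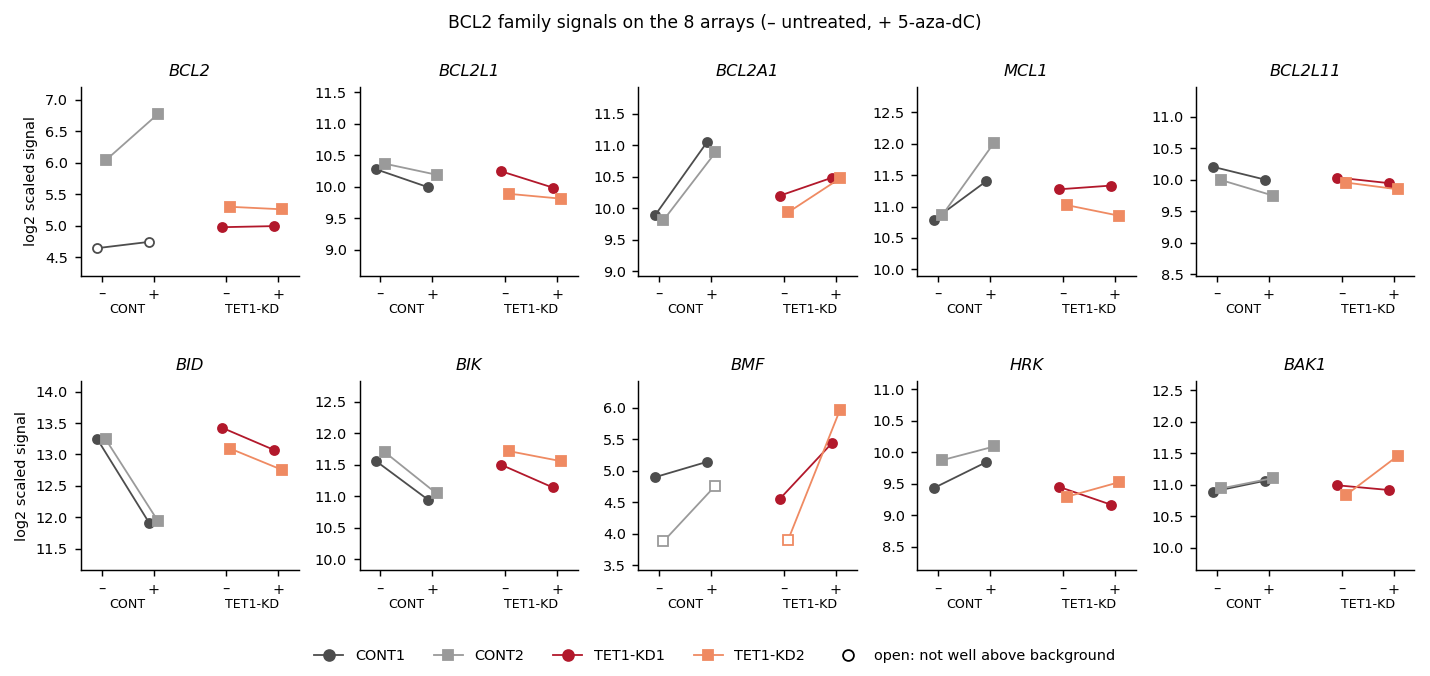
Log2 scaled signal (y axis) of the standing probe of each of the 10 genes in the 4 clones, untreated (–) and after 5-aza-dC (+), with the 2 arrays of a clone joined by a line. All panels span the same range, each at its own level, open symbols were not well above background, and the treated control arrays of *BID* (11.91 and 11.95) lie below the other 6.

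The remaining pro-survival genes gave no call in the control clones by the test as described. *BCL2L1*, on which 10 repeated spots were averaged, had signals of 10.27 and 10.36 untreated and 9.99 and 10.19 treated in CONT1 and CONT2, a difference of -0.23 (SE 0.18, interval -0.68 to 0.21, adjusted p = 0.349). *BCL2* was dim. Its probe for the beta transcript was above background on 6 of 8 arrays, at 4.64 in CONT1 and 6.04 in CONT2 without the drug and 4.74 and 6.77 with it. The 2 control clones thus differed by more than the drug moved either, the difference was 0.42 with an SE of 0.72, and a 2-fold change in either direction lies within the interval of -1.32 to 2.15. With the clone as a replicate block and the GC trend removed it was 0.79 and was called (adjusted p = 0.0347). The probe for the alpha transcript, on 10 spots, was above background on 3 of 8 arrays and was not tested.

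*BCL2L11*, the gene of BIM, was measured by 3 probes that did not move together. The probes lie along chromosome 2 on hg19, at 111878705-111878764, 111886352-111886411 and 111925892-111925951, all on the plus strand, and are called here the 5′-most, the middle and the 3′-most probe. The file describes the 5′-most and the middle probe as transcript variant 9 and the 3′-most as variant 1. It lists 2 RefSeq transcripts for the 5′-most probe, 1 for the middle and 4 for the 3′-most. The middle probe lies 39.5 kb before the 3′-most, and these positions were not set against exons here. The last 30 bases of each probe are shown in this order, with the hexamer AATAAA, a common polyadenylation signal, in capitals.
BCL2L11 5′-most probe: tgactctgactctcggactgagaaacgcaa
BCL2L11 middle probe: tatggtcattggtgattaAATAAAatgtat
BCL2L11 3′-most probe: gggtaattgccactttacttgtgcaatact

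Of the 3 probes only the middle one holds the hexamer in this stretch, as do 6.08% of the 50599 probes of the array, searched on the strand printed. The 3′-most probe, the brightest, stands for the gene. Its signals were 10.21 and 10.00 untreated and 10.01 and 9.75 treated in CONT1 and CONT2, and 10.04 and 9.96 untreated and 9.95 and 9.85 treated in TET1-KD1 and TET1-KD2. The differences were -0.22 (SE 0.16, interval -0.62 to 0.17) in the control clones and -0.10 (SE 0.16, interval -0.50 to 0.30) in the knockdown clones. With the clone as a replicate block and the GC trend removed, the first of these was -0.66 and was called (adjusted p = 0.0145).

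The middle probe behaved otherwise. Its signals were 8.65 in CONT1 and 8.08 in CONT2 untreated and 11.86 and 10.47 with 5-aza-dC. In TET1-KD1 and TET1-KD2 they were 8.73 and 8.44 untreated and 8.32 and 8.38 treated. Both treated control arrays stood above all other arrays by more than 1 log2 unit, and no knockdown array moved that way. In the control clones the probe rose by 2.80 (SE 0.45, interval 1.71 to 3.90, adjusted p = 0.00458), or 6.97-fold, and in the knockdown clones the difference was -0.23 (SE 0.45, interval -1.33 to 0.86, adjusted p = 0.786). The 5′-most probe is described as the same variant but is listed for 2 RefSeq transcripts, against 1 for the middle probe. It differed by -0.39 in both kinds of clone (SE 0.29, adjusted p = 0.317 in the control and 0.434 in the knockdown clones). Counted by probe, 6 of the 13 tested member probes were called in the control clones, beside 41.8% of all 27286 probes tested.

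**Figure D2:**
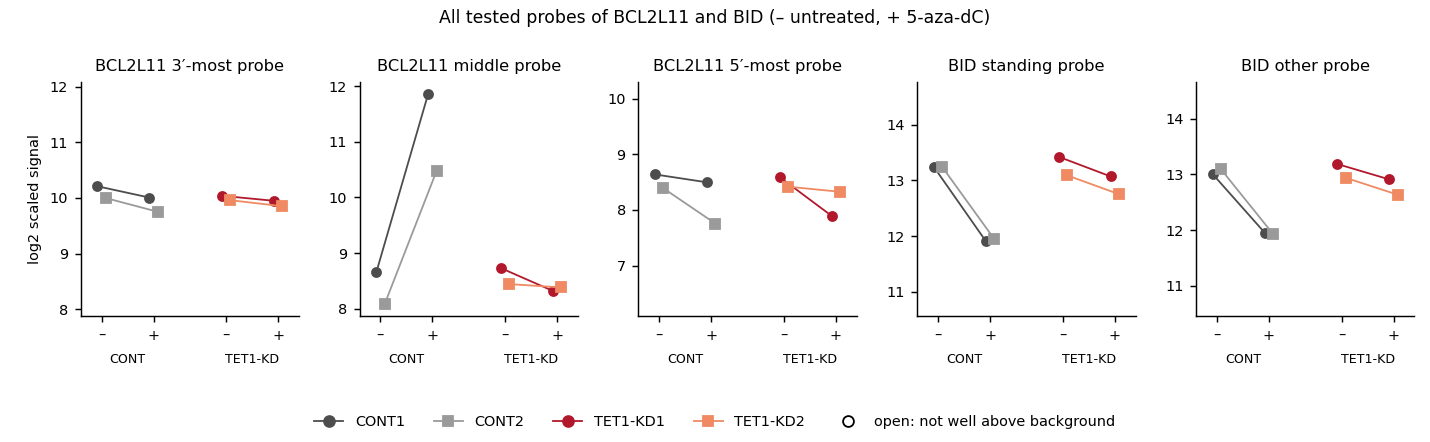
Log2 scaled signal (y axis) of the 3 *BCL2L11* probes and the 2 *BID* probes in the 4 clones, untreated (–) and after 5-aza-dC (+), all panels spanning the same range. The middle *BCL2L11* probe reached 11.86 and 10.47 in the treated control clones from 8.65 and 8.08, and both *BID* probes fell there.

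The other BH3-only genes and the effector gave no call in the control clones. *HRK*, a BH3-only gene best known from neurons, had signals of 9.43 and 9.87 untreated and 9.84 and 10.09 treated in CONT1 and CONT2, which overlap, with a difference of 0.31 (SE 0.22, interval -0.23 to 0.85). *BMF*, whose protein is tethered to the cytoskeleton in healthy cells, was dim, with signals of 4.90 and 3.88 untreated and 5.14 and 4.76 treated and a difference of 0.56 (SE 0.41, interval -0.43 to 1.56). *BAK1*, which encodes an effector, had signals of 10.89 and 10.94 untreated and 11.06 and 11.11 treated, a difference of 0.17 (SE 0.21, interval -0.33 to 0.67).

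In the knockdown clones 5-aza-dC left 0 of the 10 members past the limma threshold, beside 12.5% of all genes (9.44% higher and 3.09% lower). At an unadjusted p below 0.05 there were 2, *BCL2A1* and *BMF*, beside 5714 of all 19687 genes. The methods' t-test gave 0 members before adjustment, beside 3411 genes, and after adjustment it called 0 of all genes. *BMF* had the largest difference among the members. Its probe passed the filter on dim probes only through the treated knockdown arrays, where it was high, so the test gives no separate support for this rise. Its signals were 4.55 in TET1-KD1 and 3.90 in TET1-KD2 untreated and 5.44 and 5.97 with the drug, and both treated arrays were above background against 1 of 2 untreated arrays. The difference of 1.48 (SE 0.41, interval 0.48 to 2.47, adjusted p = 0.0717) missed the threshold, and a second *BMF* probe was above background on 0 arrays. The interval of *BAK1* ran from -0.23 to 0.78 around a difference of 0.27, in which TET1-KD2 (0.62) and TET1-KD1 (-0.08) had opposite signs. *HRK* likewise split, with -0.28 in TET1-KD1 and 0.23 in TET1-KD2. *BCL2L1* differed by -0.17 (interval -0.61 to 0.28), and for *BCL2*, at -0.01, the interval of -1.75 to 1.73 was the widest.

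**Figure D3:**
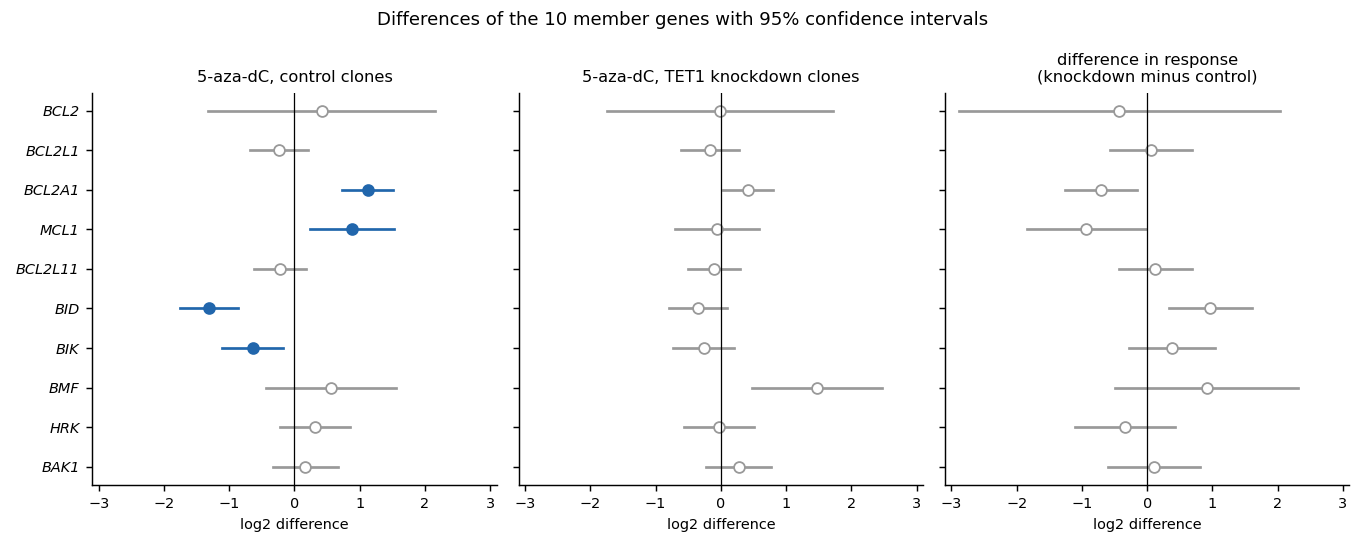
Log2 differences (x axis) of the 10 genes with 95% confidence intervals from limma, for 5-aza-dC in the control clones, in the knockdown clones, and for the difference between the 2 responses, n = 2 arrays per condition. Filled blue symbols passed an adjusted p of 0.05, which 4 genes did in the control clones and 0 in the other 2 panels.

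Untreated, the knockdown and the control clones differed in 0 of the 10 members (limma, beside 0.0203% of all genes), with 0 at an unadjusted p below 0.05, beside 1619 of 19687 genes. The methods' t-test gave 0 members before adjustment, beside 1285 genes, and 0 after it, beside 1 gene. The differences ran from -0.28 for *HRK* to 0.32 for *MCL1*. The intervals of *BID* (-0.43 to 0.47), *BAK1* (-0.51 to 0.50) and *BIK* (-0.49 to 0.45) lie within 1 log2 unit of 0, whereas those of *BCL2* (-1.94 to 1.53) and *BMF* (-1.15 to 0.83) do not.

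The response to 5-aza-dC was then compared directly between the kinds of clone, as the response of the knockdown minus that of the control clones. In this test 0 of the 10 members passed (limma, beside 5.27% of all genes), and 3 had an unadjusted p below 0.05, beside 4756 of 19687 genes. The methods' t-test gave 2 members before adjustment, beside 4495 genes, and 0 after it, beside 765 genes. *BID* differed by 0.97 (SE 0.26, interval 0.33 to 1.60, adjusted p = 0.0880), *MCL1* by -0.94 (SE 0.38, interval -1.85 to -0.02, adjusted p = 0.194) and *BCL2A1* by -0.71 (SE 0.23, interval -1.25 to -0.16, adjusted p = 0.125). The intervals of all 3 reach beyond 1 log2 unit, so the missing calls do not show equal responses. For each of the 3 the response of both knockdown clones was nearer 0 than that of either control clone. This follows in part from picking the 3 by this difference and is not separate support. The middle *BCL2L11* probe differed by -3.04 (SE 0.64, interval -4.58 to -1.49), with responses of 3.21 and 2.39 in CONT1 and CONT2 and of -0.41 and -0.06 in TET1-KD1 and TET1-KD2. It missed the threshold at an adjusted p of 0.0501 and passed it with the clone as a replicate block (adjusted p = 0.0388). With *BIK* the difference was 0.38 (interval -0.29 to 1.04) and with *BMF* 0.91 (interval -0.49 to 2.32), so neither sign was settled.

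Signals over the 8 arrays were compared with those of every other tested gene for the 3 members whose standing probes ranged most. The measure was the root mean square difference after subtracting each gene's mean. The middle *BCL2L11* probe ranged more (3.78) but does not stand for its gene and was not compared. For *BID* the nearest were *METTL2A*, *FLAD1*, *ACOT13*, *OSBP* and *TXNDC12*, with differences of 0.09 to 0.10. For *BMF* they were *IL1RAP*, *EGR1*, *SLC7A4*, *NEK11* and *CCL3L3* (0.25 to 0.27), and for *BCL2* they were *SERPINB9*, *KLF12*, *POLR2F*, *TMEM106A* and XLOC_003457 (0.35 to 0.40). The standing probes of *BMF* and *BCL2* were dim, above background on 5 and 6 of 8 arrays, which limits these matches.

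Of 18 further genes, which are family members and genes of related or interacting proteins such as *BECN1* and *BCLAF1*, 17 were tested. In the control clones 4 rose and 4 fell with 5-aza-dC, beside 20.5% and 21.3% of all genes. *BCL2L10*, a pro-survival gene, was not well above background on any untreated array and had signals of 6.84 in treated control and 6.55 in treated knockdown clones on average. It was the one gene of this list past the threshold in the knockdown clones, at least 4.45-fold higher there and at least 5.74-fold higher in the control clones. It passed the filter on dim probes only through the treated arrays, where it was high. The test therefore gives no separate support for its rise. *BCL2L12* (1.31) and *BNIP3L* (1.08), a mitophagy receptor, rose in the control clones. The BH3-only gene *BAD* (-1.48), *BNIP1* (-1.19) and the pro-survival gene *BCL2L2* (-0.78) fell. *BAD* passed in the difference in response as well (1.30, adjusted p = 0.0355, beside 3.63% of all genes higher in the knockdown clones). Other tested probes of *BAD*, *BCL2L12* and *BNIP3L* were not called and differed by 0.24, -0.47, and -0.36 and -0.17 in the control clones. *BAX*, which shares the effector role of *BAK1*, had signals of 12.30 to 13.35 and was not called.

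**Figure D4:**
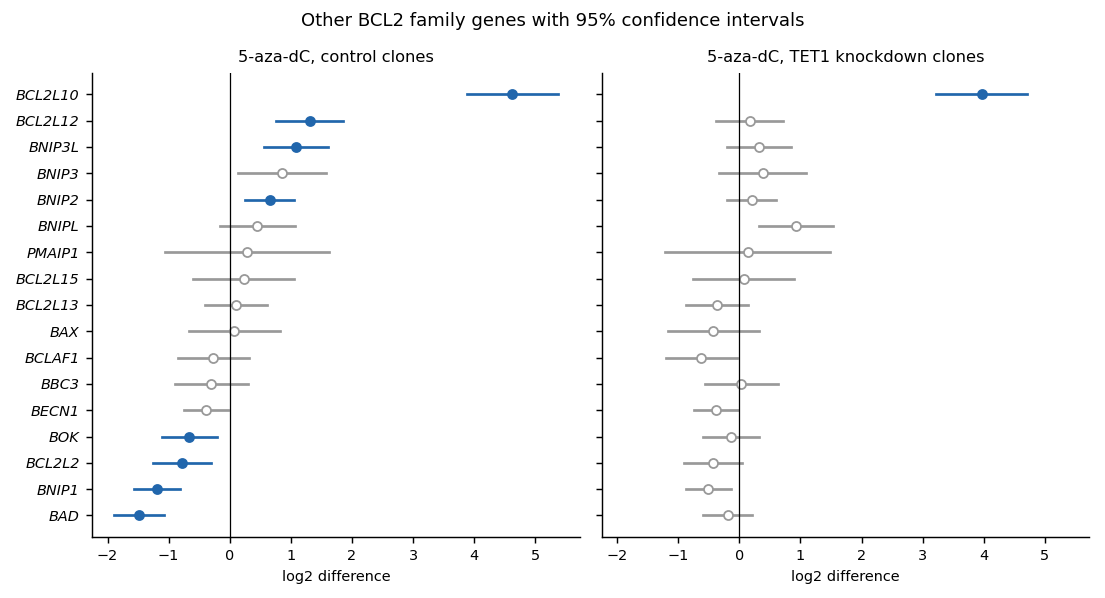
Log2 differences (x axis) with 5-aza-dC in the control and in the knockdown clones, with 95% confidence intervals, filled blue where the adjusted p was below 0.05. The 17 tested further genes are family members and genes of related or interacting proteins. *BCL2L10* was not well above background untreated, so its plotted value is a fit to signals near background, and the bounds are at least 5.74-fold and 4.45-fold.

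Downstream of the mitochondria, among 24 tested apoptosome, caspase and inhibitor genes, 3 rose and 2 fell in the control clones and 2 fell in the knockdown clones. The shares of all genes were 20.5%, 21.3% and 3.09%. The risers included *DFFA* (0.70) and *XIAP* (0.59), which encodes a caspase inhibitor, and *CASP8* (-0.66) and *DFFB* (-0.55) fell. With the drug *DFFB*, which encodes the nuclease that the *DFFA* product restrains, fell by 1.00 in the knockdown clones and *CASP2* fell by 0.98. *CASP8*, whose product cleaves BID, was called in the difference in response (1.02, adjusted p = 0.04996), though its other tested probe differed by 0.14 in the control clones and was not called. A second *DFFB* probe was not well above background on either treated control array and was at least 2.67-fold lower there (adjusted p = 0.000612). It was not called in the knockdown clones (-0.38), and its call in the difference in response (adjusted p = 0.0263) rests on the same dim arrays. The other tested *CASP2* probe was called in neither kind of clone, with -0.33 in the knockdown and 1.14 in the control clones, and the other tested *XIAP* probe (0.37 in the control clones) was not called. Of 13 tested death receptor genes, 5 rose and 0 fell in the control clones, beside 20.5% and 21.3% of all genes. The rises were led by the decoy receptor *TNFRSF10C* (1.56), *FAS* (1.35) and *TNFRSF1A* (1.19). In the knockdown clones limma called 0 of the 13 genes, beside 12.5% of all genes. At an unadjusted p below 0.05 there were 2, beside 5714 of 19687 genes. Other *FAS* probes differed by 0.49 and 0.54 and were not called.

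Of 19 tested regulators of the family, 3 rose and 4 fell in the control clones and 2 fell in the knockdown clones. The shares of all genes were 20.5%, 21.3% and 3.09%. *DYNLL2*, whose product tethers BMF, rose by 1.32, *CHAC1* by 1.19 and *MDM2* by 0.70. Among those that fell, *CDKN1A* fell by 1.41 and *NFKB1* by 0.86. *NFKB1* (-0.81) and *E2F1* (-0.79) fell in the knockdown clones, and *CDKN1A* was called in the difference in response (1.92, adjusted p = 0.0185). Of the other 3 tested *MDM2* probes one rose by 2.46 and another by 1.03 in the control clones, and the third was not called (0.12). The first of them was also called in the difference in response (-2.15, adjusted p = 0.0100). A second *CHAC1* probe rose in the knockdown clones by 2.04, from a dim untreated signal of 4.71 that was well above background on 1 of 2 arrays.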

How the data were processed

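The authors deposited scanner output holding 1 intensity for each spot, background-subtracted by Agilent Feature Extraction 10.7.3.1, with no scaling between arrays. The deposited table of the series holds the same intensity values, rounded. The paper names GeneSpring GX and adjusted t tests, and the study's normalization is not given in the sources used here.

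Intensities were divided by each array's 75th percentile, brought to a common scale, floored at 1 and converted to log2, flagged spots were left out and repeated spots averaged. Of 50543 probes with a value on all 8 arrays, 27286 were tested, which had to be well above background on each array of some condition. limma 3.58.1 in R 4.3.3 fitted the 4 condition means over all 8 arrays (4 residual degrees of freedom), with two-sided moderated tests and Benjamini-Hochberg adjustment over all probes at 0.05. A gene stands by its brightest tested probe. Because the same clone gave an untreated and a treated array, the clone pairs these arrays. The deviations of both arrays of a clone correlated at 0.198 in the control and 0.476 in the knockdown clones. The scripts were tested on simulated arrays. At the effect size first used in that test, drug responses were mostly recovered but no difference in response was. The size was then raised, and most of both were recovered. Fewer genes were changed in the simulated arrays than were called in the comparisons with the drug. The simulated recovery therefore does not measure the power of the tests on these data. Precision is limited by the number of arrays. The limma p-values rest on the spread between the 2 clones of a condition, pooled over the 4 conditions and moderated over all tested probes.

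The members and the other lists were chosen with earlier results of these data known. All members and probes are named. Of the other lists, genes passing in the difference in response, and the 3 largest rises and falls past the threshold in each comparison, are named, and other probes of those genes where they disagree. Some genes that this rule names are not reported here. Probe positions and gene names are from the files (hg19), promoters from RefSeq (GRCh38.p14), and plots were drawn with matplotlib 3.10.9. The alternatives changed background correction, scaling, filter, log offset, flags, block, GC trend, arrays used, the test, fold minimum and probe averaging, and left out each array in turn.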

Additional observations from a re-analysis of the deposited data

How the results depend on the processing

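The count of members called stayed at 0 for untreated clones under every alternative run. In the knockdown clones it was 0 throughout except for 1 (*BID*) with the replicate block and the GC trend removed. In the difference in response it was 0 except for 1 (*BID*) with normexp background correction. In the control clones it was 4, and 4 with the replicate block alone, 2 with no filter on dim probes, 2 by the methods' t-test, 2 with a 2-fold minimum and between 2 and 4 when single arrays were left out, the calls lost being *MCL1* and *BIK*. With the replicate block and the GC trend removed, *BCL2* and *BCL2L11* gained a call and *MCL1* lost its call. With only the 4 arrays of the comparison *MCL1* was also lost (adjusted p = 0.0523). *BIK* was also lost with quantile normalization (adjusted p = 0.0529) and on the spike-in scale (adjusted p = 0.131). *BID* and *BCL2A1* lost no call in the control clones under the alternatives run. The causes were not tested. For the middle *BCL2L11* probe, the call in the control clones was lost only by the methods' t-test (adjusted p = 0.134), and the difference in response passed under 7 alternatives. Among 1137 values of member probes under alternatives, 61 changed sign with no call on either side, 12 gained and 20 lost a call, and 0 called values turned. The median of all probes moved from -0.08 to 0.27 in the control clones on the spike-in scale and to -0.15 by quantile normalization, and on the spike-in scale from 0.02 to 0.13 between untreated clones and from 0.05 to -0.30 in the difference in response. The replicate block, in which the number marks the clone, changed no other call of a member than the *BCL2L11* probe. Replicate numbers of knockdown and control clones name different clones and do not pair them. When an array was left out, the lone array was assumed to vary like the other groups. Dim signals limit *BCL2* and *BMF*.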
